A study of Rattus norvegicus with 12 samples.

Results

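The 42 genes described here are used by dividing cells and were followed through the fracture hematoma of rats that differed in age and in the stability of bone fixation. The list was given by gene name, with no measured value in its rule, although it was chosen with earlier results of these data known. It held 5 regulators of the step from growth into DNA synthesis (G1/S), 12 genes of DNA replication and of nucleotide supply, and 25 genes of mitosis. A gene was counted where the array carried a probe set, a group of probes for 1 transcript, that was annotated to its symbol alone. That was so for 39 of the 42 genes, out of 14213 genes in all, and these 39 comprised 5 G1/S regulators, 10 replication genes and 24 mitosis genes. The probe sets of Rrm2 were annotated to 2 symbols and were left out, and Cdc6 and Tpx2 had no probe set of 1 symbol here. The 39 genes had 55 probe sets, and the probe set with the highest mean over all arrays stood for each gene.

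Female Sprague-Dawley rats received an osteotomy of 1.5 mm in the left femur, bridged by an external fixator, and the hematoma in the gap was taken on day 3. Young rats were 12 weeks old and old rats 52 weeks, and the fixator stood 7.5 mm (rigid) or 15 mm (semi-rigid) off the bone. Young rats formed the groups YSR (semi-rigid) and YR (rigid), and old rats the groups OSR (semi-rigid) and OR (rigid). RNA of 9 rats per group was combined into 3 pools of 3 rats, each on its own array, so that the 12 arrays limit the precision of every value. No unoperated tissue was among the groups analysed here. Values are log2 of the deposited signal, and a difference of 1 is a 2-fold change of the signal. Signals of different genes come from different probes, so that levels are compared between arrays and not between genes. In bulk tissue, fewer cells of a type and less RNA per cell cannot be told apart.

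Cell division runs in an order. Cyclins D and E with their kinases release the transcription factor E2F from its inhibitors, E2F turns on the helicase and the enzymes that supply nucleotides, and a later programme turns on the kinases, motors and checkpoint proteins that separate the chromosomes. In a healing bone, inflammatory, vascular, mesenchymal and marrow-derived cells may all divide during the first days, and RNA of the whole tissue does not separate them.

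All 39 genes were measured well inside the range of the array, with the highest group mean of each above 7.16, the median log2 signal over the whole array. The hematoma of OR had the highest mean for 31 of the 39 genes, OSR for 5, YR for 2 and YSR for 1. The lowest mean lay in YSR for 19 genes and in YR for 17. No gene, however, passed an adjusted p of 0.05 in limma, with adjustment over all 31042 probe sets, in any of 7 comparisons. Of all probe sets, 0.00644% passed for age (old minus young, averaged over fixation), 0.00322% for OSR minus YSR and 0.00322% for OR minus YR. The share was 0% for fixation (rigid minus semi-rigid, averaged over age), for the interaction (OR minus OSR, less YR minus YSR), for YR minus YSR and for OR minus OSR. The smallest adjusted p of any of the 39 genes was 0.531 (limma), for Cdk1 in OR minus YR.

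**Figure D1:**
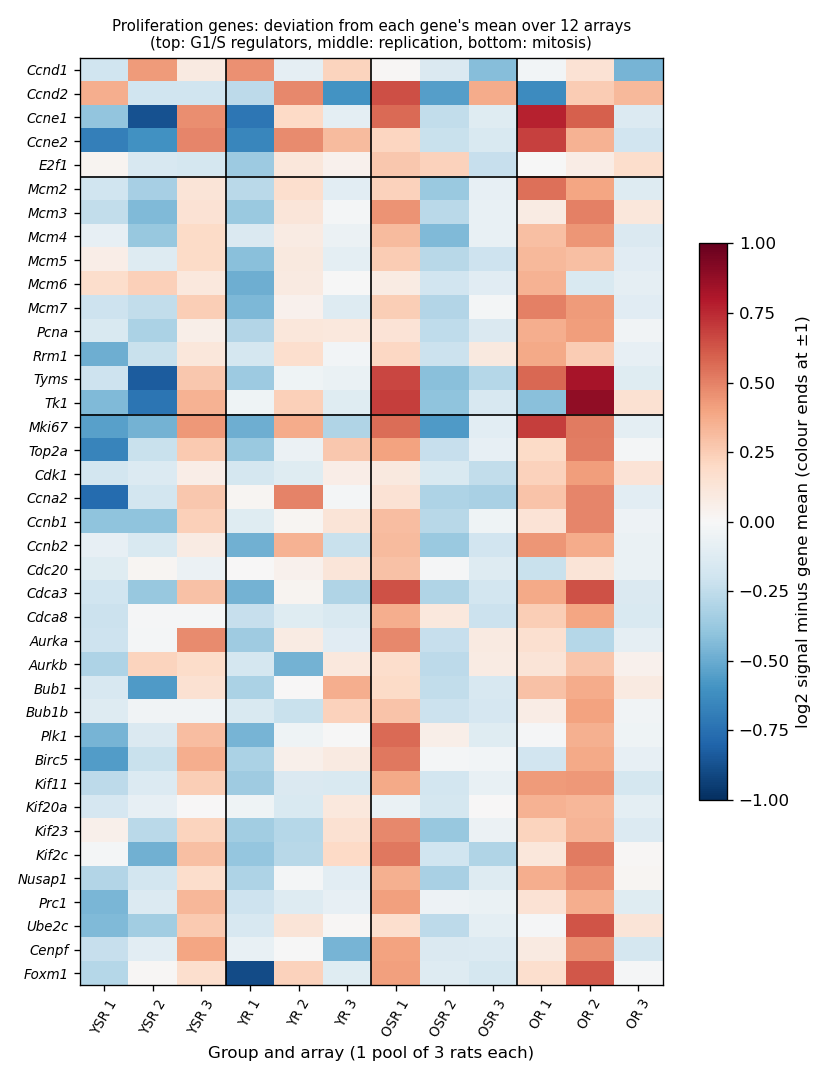
Log2 signal of each of the 39 genes (rows) in each of the 12 arrays (columns, 3 per group), as the difference from the mean of that gene over the 12 arrays. Arrays 1 and 2 of OR and array 1 of OSR are red in most rows, whereas array 1 of YR and array 2 of OSR are blue in most rows.

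Most of the 39 genes moved up or down together from array to array, within as well as between groups. The median deviation of the 39 genes from their own means was -0.21, -0.20 and 0.20 in arrays 1 to 3 of YSR and -0.32, 0.04 and -0.02 in those of YR. It was 0.32, -0.24 and -0.13 in OSR and 0.23, 0.40 and -0.09 in OR. Every group therefore held at least 1 array with a median below 0 and at least 1 above it, and the groups overlapped. Array 1 of OSR stood above the mean of the gene for 38 of 39 genes, array 2 of OR for 37, array 3 of YSR for 34 and array 1 of OR for 32. Array 1 of YR and array 2 of OSR stood above it for 3 genes each. The highest of all 12 values lay in array 2 of OR for 18 genes, in array 1 of OR for 10 and in array 1 of OSR for 9. Between arrays of 1 group this median had an SD of 0.25, and the 4 group means had an SD of 0.13. Means of 3 arrays vary less than single arrays, so that these SDs are not like quantities.

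Replication and mitosis genes followed nearly the same course from array to array. In replication genes the array medians averaged -0.12 ± 0.25 in YSR and -0.09 ± 0.22 in YR (mean ± SD of 3 arrays), against -0.04 ± 0.27 for OSR and 0.23 ± 0.28 for OR. In mitosis genes the corresponding means were -0.05 ± 0.25, -0.11 ± 0.18, 0.01 ± 0.32 and 0.17 ± 0.24. The median of the mitosis genes minus that of the replication genes was -0.04, 0.17 and 0.07 in the YSR arrays and 0.02, -0.12 and 0.07 in the YR arrays. It was 0.12, 0.07 and -0.03 in OSR and -0.17, -0.01 and 0.03 in OR. These values had both signs in every group and overlapped between all groups. Their group means went from -0.05 in OR to 0.07 in YSR, with an SD of 0.08 to 0.11 within groups. A shift of mitosis against replication genes with age or fixation was not tested.

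Marker genes of some other cell types moved along with these arrays, and those of others did not. Neutrophil and fibroblast markers, for example, had their highest median deviations in array 3 of OR (1.77 and 0.39), where the 39 genes had -0.09. The 8 measured markers of erythroid cells had median deviations of -0.92, -2.39 and 0.81 in YSR, -0.39, 0.70 and -0.45 in YR, 1.01, -0.54 and 0.04 in OSR, and 0.98, 1.19 and 0.38 in OR. Their highest 3 arrays, array 2 of OR, array 1 of OSR and array 1 of OR, were also the highest 3 of the 39 proliferation genes. The summed signal of the 8 markers lay between 55838 and 76109 in YSR, 58399 and 100923 in YR, 66670 and 85349 in OSR, and 82338 and 115434 in OR. For the 11 macrophage markers the 3 lowest median deviations lay in the same 3 arrays (-0.79, -0.29 and -0.26 in array 2 of OR, array 1 of OR and array 1 of OSR). Their summed signal ranged from 80207 to 97168 in YSR, 84840 to 98861 in YR, 69834 to 91651 in OSR and 62280 to 89132 in OR. Of the erythroid markers 8 of 8 had the higher mean in old rats, and of the macrophage markers 4 of 11, with 1 of the other 7 (Stab1) lower at an adjusted p of 0.0447 in limma. The 9 skeletal muscle markers were lowest in array 1 of OSR (-3.31) and array 2 of OR (-3.28), but stood at 1.17 in array 1 of OR. Their summed signal went from 11275 to 109750 within OSR alone. The 8 endothelial markers had their 3 highest median deviations in the same 3 arrays as the erythroid ones (1.22 in array 2 of OR, 0.49 in array 1 of OSR and 0.43 in array 1 of OR), and 0.28 in array 3 of OR. Their summed signal ranged from 5994 to 7249 in YSR, 6417 to 7638 in YR, 6371 to 11357 in OSR and 9136 to 16332 in OR. For OR minus YR 8 of 8 were higher, 7 at an unadjusted p under 0.05 (8.34% of all probe sets), 6 did not overlap (13.8% of all probe sets), and none was called. Markers of pericytes and smooth muscle, osteoclasts and adipocytes had their highest group mean deviation in OR as well, at 0.69, 0.77 and 1.11. So did those of neutrophils (0.91), osteoblasts (0.71), megakaryocytes (0.65), B and plasma cells (0.56) and fibroblasts (0.30). Macrophage, muscle, myoblast and cartilage markers had their lowest there (-0.40, -1.25, -0.92 and -0.24), and mast cell markers were highest in OSR (0.40). Some markers were dim, with a lowest group mean of 4.78 for pericytes, 4.68 for osteoclasts and 1.82 for adipocytes. That value was 1.97 for cartilage, 2.84 for mast cells, 3.77 for osteoblasts, 4.34 for B and plasma cells and 5.01 for neutrophils. None of the erythroid, macrophage, muscle or endothelial markers was near 0, the lowest group mean of any being 5.68, 8.39, 5.68 and 8.45 on the log2 scale. The part of the cell makeup in the course of the proliferation genes was not tested. A further value that set arrays apart was how far the 3' probe set of the Gapdh control exceeded its 5' probe set, as a log2 ratio, which is larger in degraded RNA. It was 6.69 in array 1 of YSR and 2.95 in array 1 of OR, between 1.02 and 1.59 in YR, and between 0.33 and 0.49 in the other 7 arrays.

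**Figure D2:**
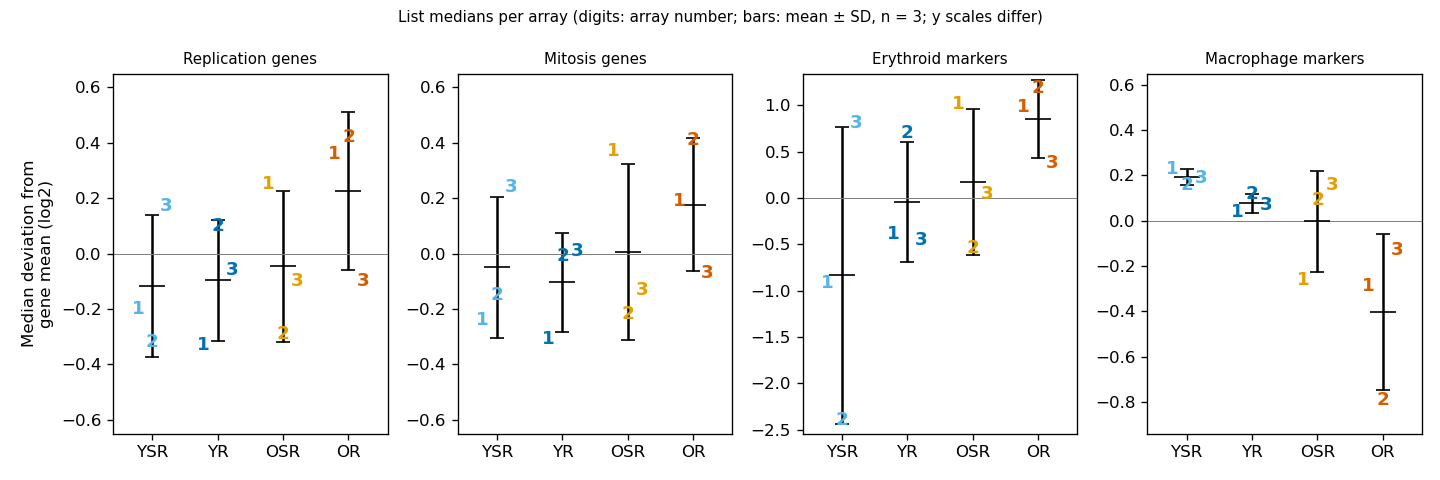
Median deviation of 4 gene lists from the mean of each gene (log2, y axes of different range) in the 12 arrays; digits are array numbers and bars show mean ± SD of 3 arrays. Replication and mitosis genes are both highest in OR array 2, at 0.42 and 0.41, and erythroid markers are highest in that array (1.19) while macrophage markers are lowest there (-0.79).

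The first question of the design was whether the hematoma of old rats differed from that of young rats. With fixation averaged, 36 of 39 genes had a higher mean in old rats, with a median difference of 0.18 on the log2 scale, whereas 53.1% of all probe sets were higher. The exceptions were Ccnd1, Mcm6 and Cdc20. None of the 36 differences passed an unadjusted p of 0.05 in limma, which 8.59% of all probe sets did, and the smallest adjusted p of the 39 was 0.600. The same question within rigid fixation (OR minus YR) gave a higher mean in OR for 37 of 39 genes (54.2% of all probe sets), with a median difference of 0.28. All 10 replication genes (median 0.29) and 23 of 24 mitosis genes (median 0.29) were among them. At an unadjusted p under 0.05 there were 4 of 39 (8.34% of all probe sets), namely Cdk1, Mcm7, Kif11 and Nusap1. The 3 OR arrays lay wholly above the 3 YR arrays for Cdk1 and Nusap1, 2 of 39, while 13.8% of all probe sets had groups that did not overlap in either direction. Within semi-rigid fixation (OSR minus YSR), 33 of 39 genes were higher in OSR (50.2% of all probe sets) with a median difference of 0.09. None had an unadjusted p under 0.05 (4.36% of all probe sets), and 1, Mcm6, did not overlap (8.98%). Without array 1 of YSR and array 1 of OR, the arrays with the highest Gapdh ratio, the count of genes above 0 was 35 for age, 36 for OR minus YR and 22 for OSR minus YSR. The shares of all probe sets without those arrays were 49.1%, 52.8% and 46.0%, in the same order. The count for OSR minus YSR rested on array 1 of OSR. Without that array, 11 of 39 genes were higher in OSR (50.4% of all probe sets). The count was 22 without array 1 of YSR (46.0% of all probe sets) and 23 without array 2 of YSR (52.3%).

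Fixation was the second question. Rigid fixation gave the higher mean for 28 of 39 genes (49.5% of all probe sets) with a median difference of 0.10, and 1 of them, Ccna2, had an unadjusted p under 0.05 (5.73% of all probe sets). By class, 9 of 10 replication genes (median 0.16) and 15 of 24 mitosis genes (median 0.05) had the higher mean under rigid fixation. In young rats (YR minus YSR) 22 of 39 genes were higher under rigid fixation (47.4% of all probe sets), with a median of 0.03. None had an unadjusted p under 0.05 (4.37%), and 1, again Mcm6, had groups that did not overlap (9.38%). In this comparison 7 of 10 replication genes (median 0.08) and 11 of 24 mitosis genes (median -0.05) were higher in YR. In old rats (OR minus OSR) 33 of 39 were higher under rigid fixation (51.2% of all probe sets), with a median of 0.20. Cdk1 alone had an unadjusted p under 0.05 (5.26% of all probe sets), and it was also the only gene whose groups did not overlap (10.8%). The 10 replication genes were all higher in OR than in OSR, with a median of 0.26, and so were 20 of 24 mitosis genes, with a median of 0.20. For the interaction, the coded difference was above 0 for 30 of 39 genes (52.5% of all probe sets) and had a median of 0.21. No gene had an unadjusted p under 0.05 for it (3.8% of all probe sets), and the smallest adjusted p was 0.990 in limma. Without array 1 of YSR and array 1 of OR, genes above 0 numbered 24 for fixation and 16 for YR minus YSR. They numbered 34 for OR minus OSR and 37 for the interaction. The shares of all probe sets without those arrays were 45.0%, 44.1%, 49.5% and 54.6%, in the same order. The comparisons with OR share its 3 arrays, so that their counts are not independent of each other. The 39 genes are not independent of each other either, as most moved together from array to array.

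**Figure D3:**
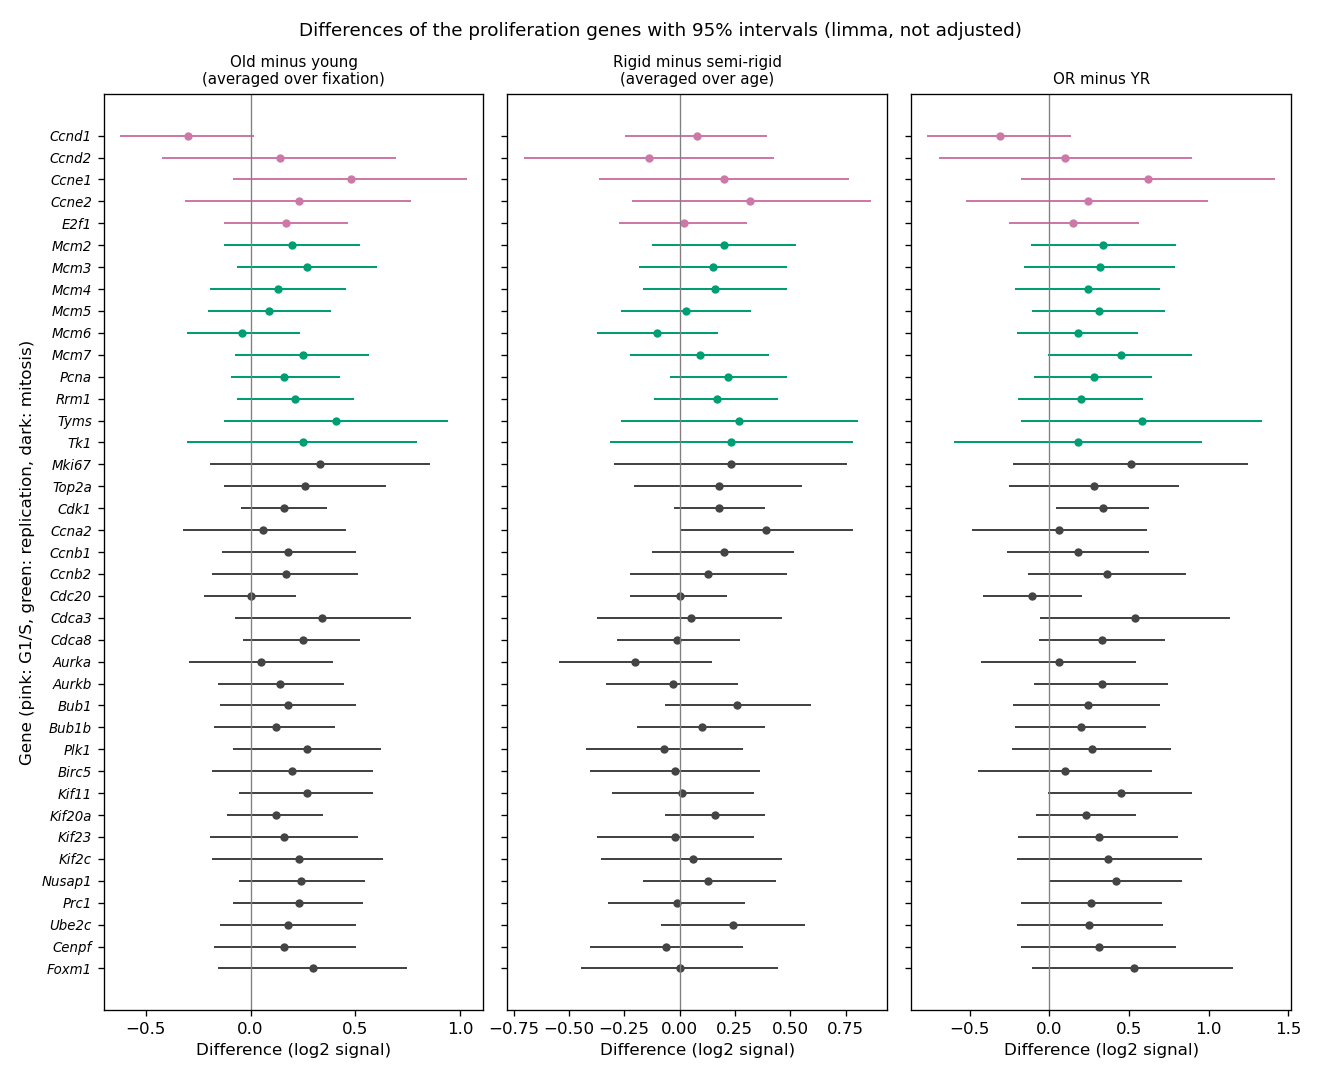
Differences of the 39 genes on the log2 scale (x axes of different range) for old minus young, rigid minus semi-rigid and OR minus YR, with 95% intervals from limma that are not adjusted for the number of genes. Most points for age and for OR minus YR lie right of 0, and nearly all intervals reach across 0.

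Among the G1/S regulators, Ccnd1 encodes cyclin D1, which links growth signals to the start of the cycle. Its log2 signal was 10.34, 10.96 and 10.63 in YSR and 10.99, 10.45 and 10.76 in YR. It was 10.55, 10.39 and 10.11 in OSR and 10.51, 10.68 and 10.07 in OR. Unlike most of the list, Ccnd1 had the lower mean in old rats, by -0.30 with a 95% interval of -0.62 to 0.01 (unadjusted p = 0.0592, adjusted p = 0.600 in limma), and the arrays overlapped. The dimmer 2 probe sets of Ccnd1 differed by 0.04 and 0.15 for age, so that the lower mean was seen at 1 of its 3 probe sets.

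The cyclins E act after cyclin D, at the entry into DNA synthesis. Ccne1 had log2 signals of 8.52, 8.04 and 9.38 in YSR, 8.19, 9.11 and 8.82 in YR, 9.48, 8.67 and 8.79 in OSR, and 9.68, 9.51 and 8.78 in OR. Old rats exceeded young rats by 0.48 (95% interval -0.08 to 1.03, adjusted p = 0.635 in limma), the highest value for age among the 39 genes. The lowest value of OR, 8.78, lay below 1 or more arrays of every other group, so that all groups overlapped. Ccne2 stood at 9.35, 9.43 and 10.52 in YSR, 9.38, 10.51 and 10.35 in YR, 10.25, 9.81 and 9.88 in OSR, and 10.72, 10.38 and 9.84 in OR. Its SD was 0.65 within YSR and 0.61 within YR, and rigid minus semi-rigid was 0.32 (95% interval -0.21 to 0.86). Its dimmer probe set gave 0.12 for fixation, and -0.82 for OR minus YR where the brighter gave 0.24.

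E2f1, a transcription factor of the E2F family that drives S-phase genes, kept within a narrow range. It was 8.79, 8.60 and 8.59 in YSR, 8.40, 8.88 and 8.81 in YR, 9.03, 8.99 and 8.53 in OSR, and 8.76, 8.84 and 8.94 in OR. The difference for age was 0.17 (95% interval -0.12 to 0.46) and that for fixation 0.02 (-0.27 to 0.30). Ccnd2, which encodes cyclin D2, ranged from 8.08 to 9.35 over the 12 arrays, and OR alone held 8.08, 8.96 and 9.03.

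The replication genes include the 6 subunits of the Mcm helicase, which unwinds DNA at the forks. Mcm2 gave 10.55, 10.42 and 10.88 in YSR, 10.48, 10.92 and 10.64 in YR, 10.98, 10.38 and 10.67 in OSR, and 11.30, 11.14 and 10.62 in OR. Its difference was 0.34 both for OR minus YR and for OR minus OSR (standard error 0.21 each), and array 3 of OR lay among the arrays of the other groups. Mcm3, the replication gene of smallest p for age, had 10.06, 9.87 and 10.45 in YSR, 9.94, 10.43 and 10.29 in YR, 10.76, 10.04 and 10.23 in OSR, and 10.39, 10.81 and 10.42 in OR. Old rats had the higher mean by 0.27 (95% interval -0.06 to 0.60, adjusted p = 0.654 in limma). Only arrays 1 of OSR and 2 of OR lay above all 6 arrays of young rats.

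Mcm7 came closest to a difference among the helicase genes. Its log2 signal was 11.19, 11.15 and 11.64 in YSR, 10.95, 11.44 and 11.27 in YR, 11.64, 11.10 and 11.38 in OSR, and 11.90, 11.82 and 11.28 in OR. OR exceeded YR by 0.45, or 1.36-fold, with a 95% interval of 0.00 to 0.89 (unadjusted p = 0.0494, adjusted p = 0.597 in limma), and array 3 of OR lay below array 2 of YR.

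Mcm6 departed from the common course. It had 10.33, 10.39 and 10.26 in YSR, 9.66, 10.24 and 10.15 in YR, 10.23, 9.96 and 10.04 in OSR, and 10.50, 10.00 and 10.06 in OR. The YSR arrays lay wholly above those of YR and of OSR, although the nearest values were 10.26 in YSR against 10.24 in YR and 10.23 in OSR, and neither difference had an unadjusted p under 0.05. Mcm5, with its highest values in arrays 1 and 2 of OR and array 1 of OSR, had 10.19, 10.00 and 10.32 in YSR, 9.71, 10.22 and 10.03 in YR, 10.38, 9.85 and 9.92 in OSR, and 10.45, 10.43 and 10.01 in OR. Its interaction value was 0.43 (95% interval -0.15 to 1.01), with the groups overlapping. Mcm4 ranged from 10.73 to 11.61.

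Pcna encodes the sliding clamp that holds the polymerase on DNA. It had 12.80, 12.64 and 13.01 in YSR, 12.66, 13.07 and 13.06 in YR, 13.09, 12.70 and 12.81 in OSR, and 13.32, 13.37 and 12.92 in OR. Arrays 1 and 2 of OR were the highest of all 12, and array 3 fell among the other groups. OR minus OSR was 0.34 (95% interval -0.03 to 0.70, unadjusted p = 0.0686, adjusted p = 0.901 in limma). Of the enzymes of nucleotide supply, Rrm1, the large subunit of ribonucleotide reductase, ranged from 10.75 to 11.61. Tyms, thymidylate synthase, ranged from 7.64 to 9.30 and Tk1, thymidine kinase, from 10.24 to 11.86. The highest value lay in OR for all 3, and none had an unadjusted p under 0.05 in any comparison.

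**Figure D4:**
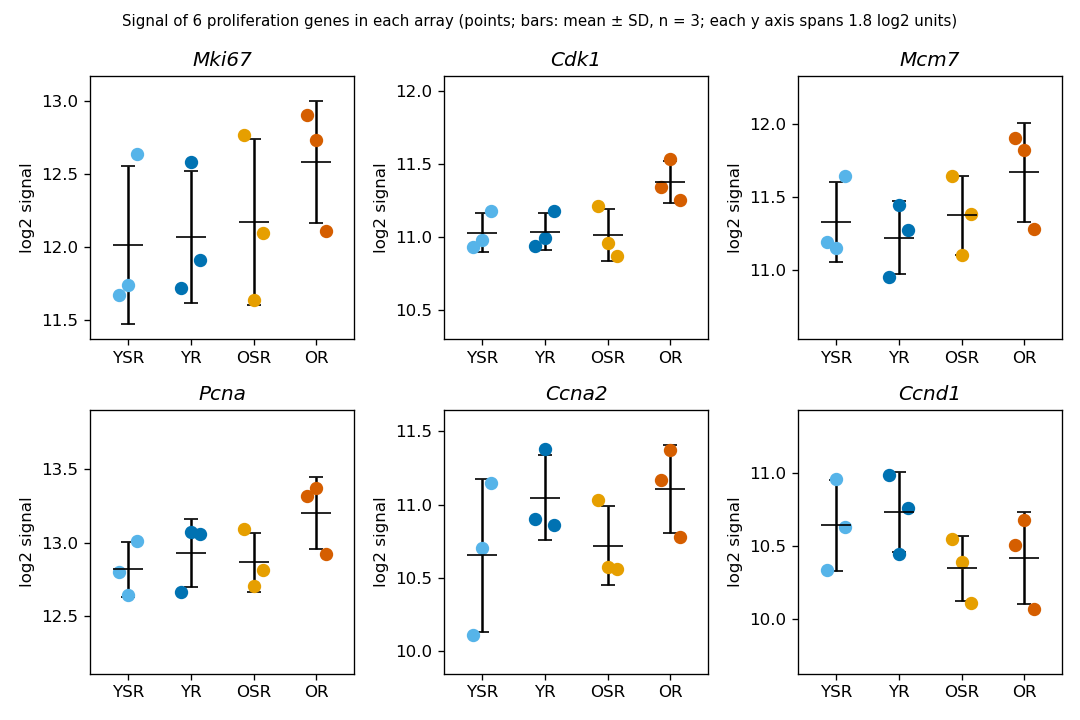
Log2 signal of Mki67, Cdk1, Mcm7, Pcna, Ccna2 and Ccnd1 in each array (points; 3 per group), with bars for mean ± SD. Cdk1 is the one of the 6 genes whose OR arrays (11.25 to 11.53) lie above all others, and Ccnd1 the one whose mean is lower in both old groups.

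Of the mitosis genes, Cdk1 encodes the kinase that drives entry into mitosis. Its log2 signal was 10.93, 10.98 and 11.18 in YSR and 10.94, 10.99 and 11.18 in YR. It was 11.21, 10.96 and 10.87 in OSR and 11.34, 11.53 and 11.25 in OR. All 3 OR arrays lay above all 9 others, the nearest value being 11.21 in OSR, whereas the other 3 groups covered nearly the same range. OR exceeded YR by 0.34 (1.26-fold, 95% interval 0.05 to 0.62, unadjusted p = 0.0242, adjusted p = 0.531 in limma). It exceeded OSR by 0.36 (1.28-fold, 95% interval 0.07 to 0.64, unadjusted p = 0.0183, adjusted p = 0.896 in limma).

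Mki67 encodes Ki-67, the protein most used to stain dividing cells. It had log2 signals of 11.67, 11.74 and 12.64 in YSR, 11.72, 12.58 and 11.91 in YR, 12.77, 11.64 and 12.10 in OSR, and 12.90, 12.73 and 12.11 in OR. Values between 11.64 and 12.77 thus occurred within OSR alone, and YSR and YR covered nearly that range. OR minus YR was 0.51 (1.42-fold) with a 95% interval of -0.22 to 1.24, and the difference for age was 0.33 (-0.19 to 0.85, adjusted p = 0.728 in limma). Top2a, the topoisomerase that untangles sister chromosomes, had 10.25, 10.69 and 11.17 in YSR, 10.54, 10.85 and 11.18 in YR, 11.31, 10.68 and 10.83 in OSR, and 11.10, 11.42 and 10.89 in OR. Its difference for age was 0.26 (95% interval -0.12 to 0.64), and the other probe set of Top2a gave 0.41.

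Ccna2 encodes cyclin A2, which acts in S phase and at entry into mitosis. It stood at 10.11, 10.70 and 11.15 in YSR, 10.90, 11.38 and 10.86 in YR, 11.03, 10.57 and 10.56 in OSR, and 11.17, 11.37 and 10.78 in OR. Both rigid groups had the higher mean, by 0.39 in young and 0.39 in old rats, and averaged over age the difference was 0.39 (1.31-fold, 95% interval 0.01 to 0.78, unadjusted p = 0.0474, adjusted p = 0.845 in limma). The arrays of rigid and semi-rigid groups overlapped, and the lowest value (10.11) was array 1 of YSR, which also had the highest Gapdh ratio. Its difference for age was 0.06.

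Foxm1, a transcription factor of the mitotic programme, had 8.26, 8.56 and 8.72 in YSR, 7.65, 8.78 and 8.43 in YR, 8.96, 8.42 and 8.37 in OSR, and 8.72, 9.17 and 8.54 in OR. OR minus YR was 0.53 (95% interval -0.10 to 1.15), and array 1 of YR (7.65) was the lowest of all 12. Its dimmer probe set gave -0.79 for OR minus YR and -0.54 for age, the opposite direction. Kif11, a motor that pushes the spindle poles apart, had 9.61, 9.74 and 10.12 in YSR, 9.52, 9.73 and 9.72 in YR, 10.25, 9.69 and 9.80 in OSR, and 10.30, 10.31 and 9.70 in OR. OR exceeded YR by 0.45 (95% interval 0.00 to 0.89, unadjusted p = 0.0498, adjusted p = 0.599 in limma), and its other probe set gave 0.27. Array 3 of OR lay within the range of YR, so that the groups overlapped. Nusap1, which binds spindle microtubules and was picked out here after its values were seen, had 10.41 to 10.70 in YR and 10.74 to 11.17 in OR. That difference was 0.42 (95% interval 0.01 to 0.83, adjusted p = 0.587 in limma).

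Cdca8, Aurkb and Birc5 encode 3 subunits of the chromosomal passenger complex, which corrects the attachment of chromosomes to the spindle. Cdca8, the mitosis gene of smallest p for age, had 9.10, 9.30 and 9.30 in YSR, 9.08, 9.19 and 9.16 in YR, 9.68, 9.42 and 9.10 in OSR, and 9.56, 9.71 and 9.16 in OR. Old rats had the higher mean by 0.25 (95% interval -0.03 to 0.52, adjusted p = 0.620 in limma), and 1 array of each old group lay inside the range of young rats. Aurkb had 9.53, 10.06 and 10.02 in YSR, 9.66, 9.36 and 9.94 in YR, 10.01, 9.57 and 9.92 in OSR, and 9.96, 10.11 and 9.88 in OR. Birc5 had 8.89, 9.23 and 9.81 in YSR, 9.13, 9.50 and 9.54 in YR, 9.98, 9.43 and 9.42 in OSR, and 9.26, 9.83 and 9.37 in OR. All groups overlapped for Aurkb and Birc5, whose age differences were 0.14 and 0.20.

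The other mitosis genes stayed within differences for age of 0.00 (Cdc20) to 0.34 (Cdca3). Cdc20, an activator of the ligase that ends mitosis, had group means of 9.83 to 9.94. Aurka, the centrosome kinase, was highest in array 3 of YSR and array 1 of OSR (9.85 and 9.86), and its difference for fixation was -0.20 (95% interval -0.54 to 0.14). For 11 of the 39 genes the array held 16 further probe sets, all dimmer. None of them was called in any comparison. The same sign as the brighter probe set was found for 8 of 16 for age, 9 for fixation and 5 for the interaction. It was found for 12 for OSR minus YSR, 9 for OR minus YR, 9 for YR minus YSR and 6 for OR minus OSR.

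What the replication and mitosis genes had in sequence was read from the promoter, 250 bases before to 50 bases after the start, in RefSeq (rat build GRCr8). Such a promoter was held for 30 of the 42 genes, and not for Aurkb, Ccna2, Ccnd1, Ccnd2, Ccne2, Cdc6, E2f1, Foxm1, Mcm4, Rrm2, Tpx2 and Ube2c. An E2F-like motif (TTTGGCGC, TTTCGCGC, TTTCCCGC or TTTGCCGC, on either strand) was found in 6 of 9 replication genes (66.7%) and in 1 of 20 mitosis genes (5.0%, Cdk1), against 2.95% of 19005 protein-coding genes. The cell cycle gene homology region, or CHR (TTTGAA or TTCGAA), was found in 3 of 9 replication genes (33.3%) and 13 of 20 mitosis genes (65.0%), against 19.6%. The CCAAT box, which binds NF-Y, occurred in 6 of 9 (66.7%) and 16 of 20 (80.0%), against 39.8%, and CHR together with CCAAT in 2 of 9 and 12 of 20, against 8.66%. The Sp1 box (GGGCGG) occurred in 7 of 9 and 14 of 20, against 44.1%. Over wider lists that leave out the 42 genes, the E2F-like motif was found in 19 of 42 replication genes (45.2%) and 2 of 53 mitosis genes (3.77%), and the CHR in 10 (23.8%) and 40 (75.5%). A match is a run of letters and not a proven site, and no factor was measured at these promoters.

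**Figure D5:**
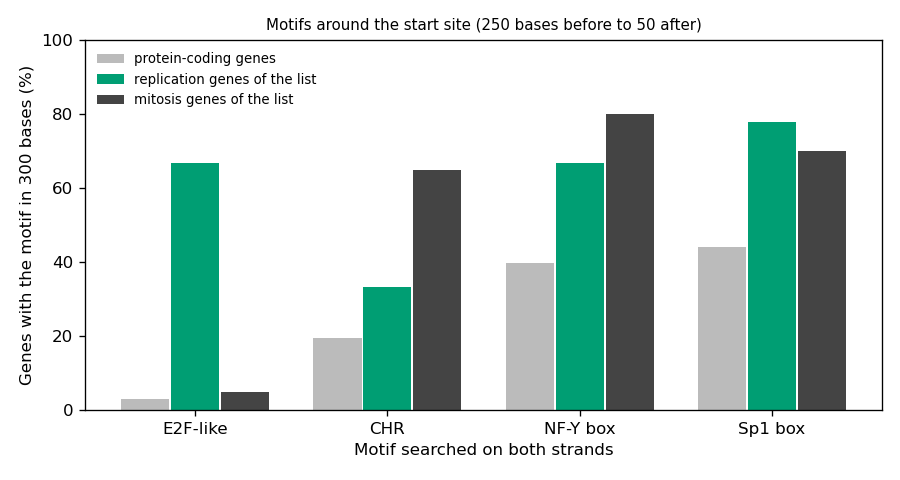
Share of genes (%, bars from 0) that hold each of 4 motifs on either strand within 250 bases before to 50 bases after the start. The E2F-like motif is at 66.7% in replication genes against 5.0% in mitosis genes, and the CHR is at 33.3% against 65.0%.

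The parts of 6 promoters before the start are printed to show both arrangements, with E2F-like, CHR and CCAAT matches of either strand in capitals. A match on the other strand appears as its reverse complement (ATTGG for CCAAT). Mki67 (chr1:199952594-199952843, minus strand) and Cdca8 (chr5:142483200-142483449, minus strand) hold 4 CCAAT boxes each, the last of which shares 1 base with a CHR.
Mki67: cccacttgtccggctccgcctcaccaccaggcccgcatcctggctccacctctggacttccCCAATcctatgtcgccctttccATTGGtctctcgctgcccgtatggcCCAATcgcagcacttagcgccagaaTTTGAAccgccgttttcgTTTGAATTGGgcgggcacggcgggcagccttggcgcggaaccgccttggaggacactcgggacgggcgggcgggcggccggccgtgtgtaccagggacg
Cdca8: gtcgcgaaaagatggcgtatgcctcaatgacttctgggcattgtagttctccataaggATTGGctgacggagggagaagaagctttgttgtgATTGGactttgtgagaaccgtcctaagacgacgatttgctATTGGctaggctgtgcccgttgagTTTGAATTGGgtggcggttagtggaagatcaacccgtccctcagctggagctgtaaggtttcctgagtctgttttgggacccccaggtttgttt
Mcm3 (chr9:30733747-30733996, minus strand), shown as the replication gene of smallest p for age, has 3 CCAAT boxes before the start and no CHR, and its 2 E2F-like matches lie across and after the start, outside the printed part. Mcm2 (chr4:122918095-122918344, minus strand) has 2 overlapping E2F-like matches just before the start, the motif being read on both strands, and 2 CHR. Mcm7 (chr12:22163179-22163428, minus strand) has 2 E2F-like matches, 1 CHR and 3 CCAAT boxes, of which 1 overlaps an E2F-like match. The last 2 genes were added after their values were seen.
Mcm3: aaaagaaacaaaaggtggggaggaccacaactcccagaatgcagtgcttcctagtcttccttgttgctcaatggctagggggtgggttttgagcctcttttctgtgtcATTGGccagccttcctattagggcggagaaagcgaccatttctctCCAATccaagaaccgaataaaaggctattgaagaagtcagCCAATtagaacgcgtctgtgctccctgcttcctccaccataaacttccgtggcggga
Mcm2: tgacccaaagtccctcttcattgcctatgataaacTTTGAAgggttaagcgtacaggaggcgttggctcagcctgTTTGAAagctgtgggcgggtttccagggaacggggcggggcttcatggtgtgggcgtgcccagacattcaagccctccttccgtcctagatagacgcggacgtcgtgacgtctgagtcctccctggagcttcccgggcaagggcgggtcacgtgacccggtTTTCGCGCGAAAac
Mcm7: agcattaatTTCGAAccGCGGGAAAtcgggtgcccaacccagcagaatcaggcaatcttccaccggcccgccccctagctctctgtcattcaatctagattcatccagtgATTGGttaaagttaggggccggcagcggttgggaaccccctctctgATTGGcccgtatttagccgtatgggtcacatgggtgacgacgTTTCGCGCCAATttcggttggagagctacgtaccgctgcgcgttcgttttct
Cdk1 (chr20:19265043-19265292, plus strand), also added after its values were seen, is the mitosis gene with both kinds of match, 1 E2F-like, 2 CHR and 3 CCAAT.
Cdk1: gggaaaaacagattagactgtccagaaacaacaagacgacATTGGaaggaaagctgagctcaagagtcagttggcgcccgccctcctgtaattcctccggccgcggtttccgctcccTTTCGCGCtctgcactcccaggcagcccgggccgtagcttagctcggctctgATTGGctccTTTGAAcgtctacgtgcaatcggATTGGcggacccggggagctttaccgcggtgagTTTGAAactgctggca

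Other genes of the cell cycle, taken from wider lists that leave out the 42, gave much the same picture. Of 42 further replication genes, 35 were higher in old rats (median difference 0.16, against 53.1% of all probe sets) and 38 were higher in OR than in YR (0.20, against 54.2%). Of 49 further mitosis genes, 44 were higher in old rats (0.22) and 43 in OR than in YR (0.26). None passed an adjusted p of 0.05 in limma in any comparison, and for age 3 of 42 and 4 of 49 had an unadjusted p under 0.05, all higher in old rats, which was no more than the 8.59% of all probe sets. Cdc45, which joins the Mcm helicase, had an age difference of 0.43 (standard error 0.15, adjusted p = 0.442 in limma), and Sgo1, which guards the cohesion of sister chromosomes, one of 0.53 (0.19, adjusted p = 0.453). For fixation, Gins1, a helicase partner, had a difference of 0.26 (0.13) and Lmnb1, a lamin of the nuclear envelope, 0.28 (0.08), both with an adjusted p of 0.845 in limma. Of 12 further G1/S genes, 8 were higher in old rats (53.1% of all probe sets), with E2f2 at 0.79 (0.33, adjusted p = 0.529 in limma). Cdk6, a partner of cyclin D, had a fixation difference of -1.60 (standard error 0.55, adjusted p = 0.845 in limma).

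Genes that hold the cycle back did not share the array course of the 39 genes. Over 16 inhibitors and growth arrest genes the median deviation lay between -0.17 and 0.28, was highest in array 1 of YR and was -0.04 and -0.15 in array 1 of OSR and array 2 of OR. For age 9 of 16 were higher in old rats (median 0.07, against 53.1% of all probe sets), and 1 was higher and 3 were lower at an unadjusted p under 0.05 (8.59% of all probe sets). These were Cdkn2c (higher), Gadd45b, Cdkn1a and Rbl2 (lower), of which Cdkn2c, Cdkn1a and Rbl2 were picked out after their values were seen. Gadd45b, a growth arrest gene induced by stress, had 9.65, 9.98 and 9.51 in YSR, 9.60, 9.86 and 9.61 in YR, 8.86, 9.29 and 9.55 in OSR, and 8.57, 8.76 and 9.28 in OR. Only 1 array of old rats, array 3 of OSR, lay within the range of young rats. The difference was -0.65 (standard error 0.16, unadjusted p = 0.00119, adjusted p = 0.215 in limma). Cdkn1a, which encodes the p21 inhibitor of cyclin-dependent kinases, was lower in old rats by an estimated -0.97 (0.31, adjusted p = 0.373 in limma). Gadd45a had a fixation difference of 0.78 averaged over age (0.30, adjusted p = 0.845 in limma), made up of 1.49 in young rats (YR minus YSR, unadjusted p = 0.0043, adjusted p = 0.991) and 0.06 in old rats (OR minus OSR, unadjusted p = 0.884). Its interaction value was -1.43 (unadjusted p = 0.0357, adjusted p = 0.990 in limma).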

How the data were processed

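RNA from the day 3 fracture hematoma was measured on 1-colour Affymetrix rat arrays, 3 arrays for each of 4 groups. The series value table, as deposited, gives 1 linear intensity per probe set (31099) and array, brought by the authors to a common trimmed mean on all arrays. For this step the submitters' notes name GCOS 1.2, whereas the methods of the paper name PLIER summaries, which were not used here. Array medians lay between 126.9 and 167.5.

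Values below 1 were set to 1 before the log2. The 57 controls were dropped, and the other 31042 probe sets were fitted with limma 3.58.1 (lmFit, then eBayes with trend) under R 4.3.3 (package data.table, version 1.17.8), with all 12 arrays in 1 fit and Benjamini-Hochberg adjustment over all probe sets. Calls needed an adjusted p under 0.05. The code was tested on simulated data. Symbols came from the platform annotation (20826 probe sets with 1 symbol, 436 with several, 9780 with none), brought up to date for 20764 by gene identifier. Promoters came from RefSeq tables of GRCr8. Python 3.11.15, pandas 2.3.3, numpy 2.4.6 and matplotlib 3.10.9 were used for the rest.

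The members, the wider and marker lists, the tests and the rule for naming genes were chosen with earlier results of these data known. The rule named Mki67, Top2a, Cdk1, Pcna, Mcm2, Ccnd1, E2f1 and Foxm1. It added, in each of the 3 classes, the 2 members of smallest p for age, fixation and interaction and the 1 of smallest p in each pair of groups differing in 1 factor, and in each wider list the gene of smallest p for age and for fixation. Alternatives were quantile normalization, a pseudocount of 16, leaving out dim probe sets, eBayes without trend, a fit of each pair alone, the methods' test, a block on replicate number, all probe sets of a gene, and leaving out arrays.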

Additional observations from a re-analysis of the deposited data

How the results depend on the processing

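The count of members called stayed at 0 in all 7 comparisons under every alternative run. The 78 values followed were counts of calls, class medians and differences of the named genes. Class medians moved by less than the SD between arrays of 1 group (0.26 in replication and 0.25 in mitosis genes). Medians near 0 still changed sign. Differences of the named genes were compared by call alone, and none was called under any alternative. Their sizes moved, and the interaction value of Mki67 (0.36) ranged from 0.05 to 0.66. For mitosis genes the median of OSR minus YSR (0.09) was -0.10 without array 1 of OSR and -0.01 without array 1 of YSR, that of YR minus YSR (-0.05) was 0.09 without array 3 of YSR and 0.06 without array 1 of YR, and that of fixation (0.05) was -0.03 without array 2 of OR and -0.01 without array 3 of OSR. For replication genes OSR minus YSR (0.05) was -0.09 without array 1 of OSR and -0.04 without array 2 of YSR, and YR minus YSR (0.08) was -0.07 without array 2 of YSR and -0.01 without array 2 of YR. The median of age stayed between 0.11 and 0.28 in both classes, and that of OR minus YR between 0.17 and 0.42 in replication and 0.17 and 0.39 in mitosis genes. The number of members higher in OSR than in YSR was 33 of 39 with all arrays and 11 without array 1 of OSR. The shares of all probe sets were 50.2% and 50.4%. Counts of members at an unadjusted p under 0.05 moved further. The share of all probe sets at that p was not counted under the alternatives. The counts that follow therefore cannot be told from a change over the whole array. For age there were 0 of 39 with all arrays, 13 without array 3 of YSR and 9 without array 3 of OR. For OR minus YR there were 4 with all arrays, 12 without array 3 of OR, and 0 without array 1 of YR, without array 2 of OR or with no intensity trend. For OR minus OSR there was 1 with all arrays, 8 without array 1 of OSR and 5 without array 3 of OR. For fixation there was 1 with all arrays, 6 without array 3 of YSR and 4 without array 1 of YR or array 3 of OR. The interaction had 0 with all arrays and 3 without array 1 of OSR. Over all probe sets, calls for age rose from 2 to 80 without array 3 of OSR, those for OR minus YR from 1 to 14 with only the arrays of that pair, and those for YR minus YSR from 0 to 27 without the 2 arrays of highest Gapdh ratio. The causes were not tested. Arrays that share a replicate number were not paired, as across groups they had a median correlation of 0.019 in their deviations (18 pairs, -0.412 to 0.405) against 0.020 in 36 other pairs. With the replicate number as a block, 0 members were called and 1 had an unadjusted p under 0.05 for OR minus YR.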
